A study of Mus musculus with 4 samples.

Results

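CXC chemokines are described here in RAW 264.7 cells, a mouse macrophage-like line derived from a virus-induced tumour, through Cxcl1, Cxcl2, Cxcl3, Cxcl9, Cxcl10 and Cxcl16. These 6 members were taken by symbol from the 54532 genes of the deposited tables. Of the 6, 4 had reads in at least 1 library, 3 passed the filter on low counts (a mean CPM, counts scaled to library size, of at least 1, which left 11640 genes) and 2 had no read anywhere. Cells of the Hnrnpul1-/- line treated with lipopolysaccharide (LPS, a bacterial cell wall component) gave 1 library of polyadenylated RNA, as did wild-type cells treated with LPS, untreated Hnrnpul1-/- cells and untreated wild-type cells. LPS was given at 100 ng/ml, and the labels give 10 h for it. Total counts were 17909549, 17045432, 17361615 and 17162124 in that order of groups. The labels do not say whether the Hnrnpul1-/- cells came from 1 clone. Hnrnpul1, which encodes an RNA-binding protein, had log2 ratios of knockout to wild type of -3.22 under LPS and -3.54 untreated.

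CXC chemokines are small secreted proteins that direct the migration of leukocytes through G protein-coupled receptors. Cxcl1, Cxcl2 and Cxcl3 encode ligands of CXCR2 that draw neutrophils, and macrophages stimulated through the LPS receptor TLR4 are a known source of them. Cxcl9 and Cxcl10 encode ligands of CXCR3, which is found on activated T cells and natural killer cells; Cxcl10 is known to be induced by both type I and type II interferon, and Cxcl9 mainly by interferon gamma. Cxcl16 encodes a membrane-anchored chemokine that binds CXCR6, takes up oxidised lipoprotein, and is released by ADAM proteases.

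In the deposited tables (GRCm38), 5 members lie on chromosome 5 and Cxcl16 on chromosome 11. Cxcl3 (ENSMUSG00000029379) spans 90786103 to 90789600, Cxcl1 (ENSMUSG00000029380) 90891241 to 90893115 and Cxcl2 (ENSMUSG00000058427) 90903871 to 90905938, all on the plus strand. Cxcl9 (ENSMUSG00000029417) spans 92321347 to 92328079 and Cxcl10 (ENSMUSG00000034855) 92346638 to 92348889, both on the minus strand. Cxcl16 (ENSMUSG00000018920) spans 70453983 to 70459984 on the minus strand. All 6 are annotated as protein-coding.

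Promoters are shown because the members that neighbour each other in the genome had very different read counts, and the sequences let their upstream letters be compared. Each is the 250 bases before the gene's start in RefSeq's table (GRCm38.p6), 5′ to 3′ on the gene's strand. The windows are chr5:90890995-90891244 for Cxcl1, chr5:90903649-90903898 for Cxcl2 and chr5:90785851-90786100 for Cxcl3 on the plus strand, and chr5:92328080-92328329 for Cxcl9 and chr5:92348890-92349139 for Cxcl10 on the minus strand. Of the 6 members, 5 matched an entry of that table. Capitals mark matches on either strand to the NF-kB-like letters GGGANNTNC and to the letters GAAANNGAA, found in the interferon-stimulated response element. These letters were chosen after the sequences had been seen.
Cxcl1: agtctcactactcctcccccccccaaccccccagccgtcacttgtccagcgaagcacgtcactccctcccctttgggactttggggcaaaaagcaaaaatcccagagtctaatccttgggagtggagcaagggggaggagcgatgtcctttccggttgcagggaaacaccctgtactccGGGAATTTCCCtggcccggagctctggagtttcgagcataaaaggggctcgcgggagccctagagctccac
Cxcl2: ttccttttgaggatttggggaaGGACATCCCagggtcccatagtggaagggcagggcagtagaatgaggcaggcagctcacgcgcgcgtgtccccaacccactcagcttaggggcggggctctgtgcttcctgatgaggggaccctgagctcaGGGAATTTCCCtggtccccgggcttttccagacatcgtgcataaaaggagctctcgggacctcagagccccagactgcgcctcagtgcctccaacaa
Cxcl3: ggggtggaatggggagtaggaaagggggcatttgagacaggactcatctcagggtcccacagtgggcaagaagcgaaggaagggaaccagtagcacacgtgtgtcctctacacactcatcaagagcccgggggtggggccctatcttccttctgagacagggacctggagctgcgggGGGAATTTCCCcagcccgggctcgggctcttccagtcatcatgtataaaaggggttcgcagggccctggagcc
Cxcl9: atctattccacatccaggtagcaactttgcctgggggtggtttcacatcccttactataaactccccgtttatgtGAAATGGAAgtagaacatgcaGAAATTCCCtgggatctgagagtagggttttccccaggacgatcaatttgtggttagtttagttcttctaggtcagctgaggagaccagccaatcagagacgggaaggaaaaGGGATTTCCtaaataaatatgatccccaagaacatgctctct
Cxcl10: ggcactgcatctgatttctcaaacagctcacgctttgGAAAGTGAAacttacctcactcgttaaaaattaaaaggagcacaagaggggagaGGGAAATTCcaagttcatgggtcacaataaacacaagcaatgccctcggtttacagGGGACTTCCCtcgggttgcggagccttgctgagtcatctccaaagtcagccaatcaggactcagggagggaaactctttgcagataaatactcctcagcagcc

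The promoters of Cxcl1, Cxcl2 and Cxcl3 shared a run of 11 bases, GGGAATTTCCC, the longest common to all 3, which ended 61, 87 and 63 bases before RefSeq's start. These distances depend on the start used: the Cxcl1 and Cxcl2 windows run past the gene starts of the deposited annotation, 90891241 and 90903871. Among all 32851 promoters of the table cut to the same length, 14 held this run on either strand (0.0426%), these 3 included. The run matches GGGANNTNC on both strands, in overlapping letters, and so counts as 1 place. Cxcl2 held a further match to these letters on the other strand. The Cxcl10 promoter held GGGAAATTC and GGGACTTCC, and the interferon-type word GAAAGTGAA. Cxcl9 held GGGATTTCC, a match on the other strand and the interferon-type word GAAATGGAA. Either strand of 12.5% of all promoters held GGGANNTNC, against 5 of 5 members, and 7.13% held GAAANNGAA, against 2 of 5. Both patterns were chosen with these sequences in view, so the member counts here and for the words below are a description. ATAAAAGG, a TATA-like word present in 1.54% of all promoters on either strand, was found in Cxcl1, Cxcl2 and Cxcl3, and TGANTCA, an AP-1-type word present in 6.75%, in Cxcl10. A match describes letters only: Cxcl1 and Cxcl3 held the run that Cxcl2 held and had 0 to 2 reads per library.

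Another sequence feature set Cxcl1, Cxcl2 and Cxcl3 apart from the other members by count. AU-rich elements, runs of the pentamer ATTTA in the 3′ untranslated region, are known to mark chemokine and cytokine mRNAs for decay. In the GENCODE transcripts, Cxcl2 held 11 such pentamers in 1494 bases, Cxcl1 held 7 in 592 bases and Cxcl3 held 5 in 645 bases. Cxcl9 held 3 in 2452 bases, Cxcl10 held 3 in 996 bases and Cxcl16 held 2 in 1421 bases. The longer word TTATTTATT occurred 4 times in Cxcl2, 2 times in Cxcl1 and 1 time in Cxcl3, and was not found in the other 3 members. Over 21010 genes, 65.2% held ATTTA at least once and 7.66% held TTATTTATT. For each of these genes a stretch of 30 bases that holds TTATTTATT is shown, the one with the most pentamers, with ATTTA in capitals and T for the mRNA's U. Pentamers overlap in Cxcl1, with 4, and Cxcl2, with 5, and the Cxcl3 stretch holds 1.
Cxcl1: gggtcctATTTATTTAtgtATTTATTTAtt
Cxcl2: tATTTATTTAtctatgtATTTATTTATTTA
Cxcl3: actatacaagattatcagttgttATTTAtt

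Cxcl2 was the most abundant member with LPS in both genotypes, and Cxcl10 came next. Cxcl2 had 16653 reads in LPS-treated Hnrnpul1-/- cells and 14055 in LPS-treated wild-type cells, against 28 in untreated Hnrnpul1-/- cells and 22 in untreated wild-type cells. Its normalized levels, scaled between libraries by trimmed mean of M-values (TMM), were 1034 CPM (95% counting interval 1019 to 1050), 915 CPM (900 to 931), 1.45 CPM (0.961 to 2.09) and 1.16 CPM (0.726 to 1.75) in that order. Both LPS-treated libraries lay far above both untreated ones. Per kilobase of gene length Cxcl2 stood at 500.1 and 443 CPM in LPS-treated Hnrnpul1-/- and wild-type cells, rank 91 of 12557 and rank 99 of 12386 protein-coding genes with reads. Its untreated ranks were 9690 of 12680 in Hnrnpul1-/- and 9823 of 12579 in wild type.

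Cxcl10 had 3966 reads in LPS-treated Hnrnpul1-/- cells and 2457 in LPS-treated wild-type cells, against 25 and 9 in the untreated libraries of the same genotypes. The levels were 246, 160.0, 1.29 and 0.474 CPM. In both treatments the knockout library was the higher one. Counting intervals of the 2 untreated levels, 0.835 to 1.91 CPM in Hnrnpul1-/- and 0.217 to 0.899 CPM in wild type, overlapped. Per kilobase, Cxcl10 reached rank 488 in LPS-treated Hnrnpul1-/- cells and rank 764 in LPS-treated wild-type cells.

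Cxcl16 differed from both in having more reads in untreated cells. It had 470 and 462 reads in LPS-treated Hnrnpul1-/- and wild-type cells, against 110 and 113 in the untreated libraries. These were 29.2, 30.1, 5.68 and 5.95 CPM. Per kilobase its untreated ranks were still low, 8680 of 12680 in Hnrnpul1-/- and 8592 of 12579 in wild type. The libraries fell into an LPS-treated and an untreated pair, and within each pair the genotypes lay within counting error of each other.

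Cxcl3 was barely detected, with 2 reads in each LPS-treated library and 0 in each untreated one. All 4 values were at or under the floor of 3 counts, so no ratio to untreated cells is given. Cxcl1 and Cxcl9 had 0 reads in every library. That count allows levels of up to 0.186, 0.195, 0.155 and 0.158 CPM in LPS-treated Hnrnpul1-/-, LPS-treated wild-type, untreated Hnrnpul1-/- and untreated wild-type cells (3 counts of each library). Whether this reflects the transcripts of these cells or the alignment and counting was not tested. No read of these 2 genes was found at this depth, while Cxcl2, which lies beside Cxcl1 on the same strand, had 16653 and 14055 reads with LPS. Fewer cells making a transcript and less RNA per cell cannot be told apart in such bulk libraries.

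**Figure D1:**
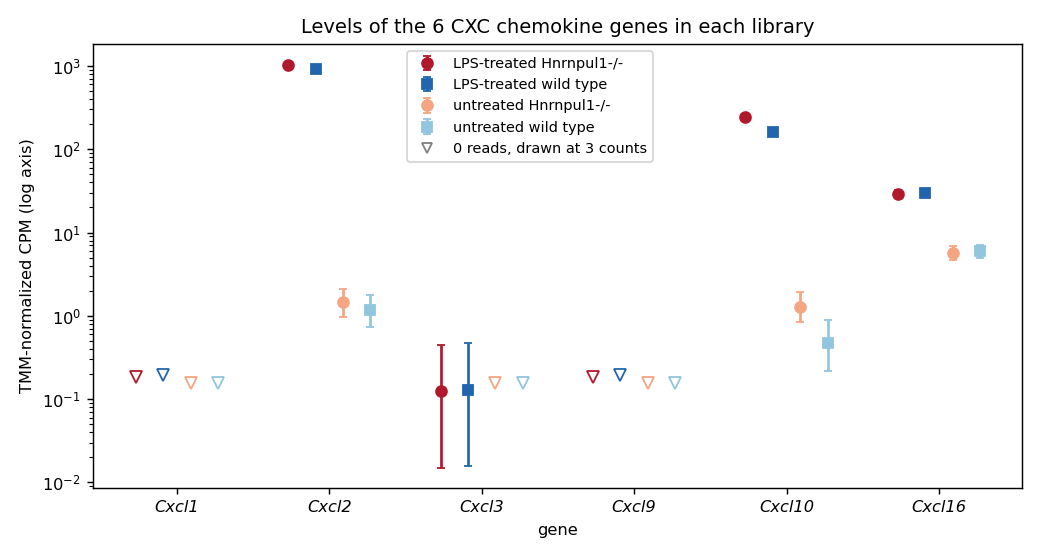
Normalized level of each member in each library, in TMM-normalized CPM on a log axis, with 95% counting intervals; open triangles mark libraries with 0 reads, drawn at 3 counts. Cxcl2 and Cxcl10 stand far above the floor in both LPS-treated libraries, Cxcl16 is present in all 4, and Cxcl1 and Cxcl9 have no read.

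Whether reads could be credited to the wrong gene was read from the transcripts. Of all 100-base words of its annotated transcripts, Cxcl2 shared 3.05% with another gene, Cxcl3, and Cxcl1 and Cxcl9 shared none. The labels do not state the read length. At 50 bases Cxcl1 still shared none, while Cxcl9 shared 0.472% and Cxcl3 4.29% with 119 and 78 genes. Cxcl10 shared 1.39% with Art3, a gene on the opposite strand that had 4, 0, 2 and 1 reads. Cxcl16 shared 14.2% with Zmynd15, which overlaps its 5′ end on the opposite strand and had 75, 57, 15 and 10 reads in LPS-treated Hnrnpul1-/-, LPS-treated wild-type, untreated Hnrnpul1-/- and untreated wild-type cells. Zmynd15 was itself higher with LPS, by log2 ratios of 2.59 in Hnrnpul1-/- and 2.82 in wild type, and the strand setting of the counting is not stated in the labels. The part of such reads in the Cxcl16 values was not tested.

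The first comparison asks what LPS did to these genes in each genotype. Differences are log2 ratios of normalized counts with an exact 95% counting interval, and a gene was called when it differed at least 2-fold and the interval excluded no change. With 1 library per group these intervals cover counting error only and no difference has a replicate check. Cxcl2, Cxcl10 and Cxcl16 were higher with LPS in both genotypes, which is 3 of the 6 members, the other 3 being under the filter. Of all tested genes, 23.6% were called in Hnrnpul1-/- (11.6% higher and 12% lower) and 21.4% in wild type (11.2% higher and 10.1% lower). Cxcl10 passed the filter through the LPS-treated libraries, so the number called is a description.

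For Cxcl2 the LPS ratio was 9.48 on the log2 scale (8.95 to 10.07, 715-fold) in Hnrnpul1-/- and 9.63 (9.03 to 10.30, 790-fold) in wild type. Of all tested genes, 99.9% had a lower ratio in Hnrnpul1-/-. The width of these intervals comes from the 22 to 28 untreated reads.

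Cxcl10 had an LPS ratio of 7.58 (7.01 to 8.21, 191-fold) in Hnrnpul1-/- and 8.40 (7.47 to 9.53, 338-fold) in wild type. Cxcl16, with 2.36 (2.06 to 2.67, 5.14-fold) and 2.34 (2.04 to 2.65, 5.06-fold), had nearly equal ratios in the 2 genotypes. Its ratio still exceeded that of 95.9% of tested genes in both. The 3 members thus ran in the same order in each genotype, Cxcl2 over Cxcl10 over Cxcl16. The separate intervals of Cxcl2 and Cxcl10 overlapped in wild type and not in Hnrnpul1-/-. Compared directly, the ratio of Cxcl10 to Cxcl2 reads changed with LPS by -1.91 (-2.69 to -1.13) in Hnrnpul1-/-. In wild type it changed by -1.23 (-2.35 to -0.106), on as few as 9 untreated reads, and both intervals cover counting error only.

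Over both genotypes together, edgeR's quasi-likelihood fit of an additive model put the LPS effect on Cxcl2 at 9.54 on the log2 scale (Benjamini-Hochberg adjusted p = 1.96e-09 over all tested genes). Cxcl10 had 7.84 (adjusted p = 1.02e-08) and Cxcl16 2.35 (adjusted p = 2.20e-06) in the same edgeR fit. In this fit 60.3% of all tested genes had an LPS effect at an adjusted p of at most 0.05, 30.2% higher and 30.1% lower. The fit has 1 residual degree of freedom and takes the 2 genotypes as each other's repeat.

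The second comparison sets the Hnrnpul1-/- line against the wild-type line. Under LPS, Cxcl10 was higher in knockout than in wild type by 0.62 on the log2 scale (0.55 to 0.70, 1.54-fold), more than counting error and under the 2-fold size. Cxcl2 had a ratio of 0.18 (0.14 to 0.21, 1.13-fold) and Cxcl16 of -0.04 (-0.23 to 0.14). None of the 3 was called, where 3.49% of all tested genes were called, 1.66% higher and 1.83% lower. The middle 90% of tested genes lay between -0.65 and 0.59, so Cxcl10 was just outside that range and Cxcl2 inside it.

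In untreated cells Cxcl10 was called higher in knockout, by 1.45 (0.30 to 2.73, 2.72-fold), on 25 reads against 9. It was 1 of the 6 members, and 2.01% of all tested genes were called there, 1.15% higher and 0.859% lower. The ratio of Cxcl2 was 0.32 (-0.54 to 1.19), on 28 reads against 22. Cxcl16 had -0.07 (-0.46 to 0.32), and this interval reaches from 0.728-fold to 1.25-fold. With the deposited FPKM on the log2(FPKM + 1) scale, which understates changes of low genes, the untreated ratio of Cxcl10 was 0.37 and no longer called.

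The additive edgeR fit, which joins the 2 treatments, gave Cxcl10 a knockout effect of 0.67 on the log2 scale with an adjusted p of 0.0329; its adjusted p ranged from 0.00430 to 0.0682 over the alternatives tried, and it missed the 0.05 threshold with scaling by total counts and with DESeq2's Wald test. Cxcl10 was higher in the knockout library in 2 of 2 treatments. Of all tested genes, 1.92% had a knockout effect at this threshold, 0.988% higher and 0.928% lower. By the same edgeR test Cxcl2 had 0.19 (adjusted p = 0.409) and Cxcl16 -0.05 (adjusted p = 0.915). Both knockout libraries may come from 1 line, so this p speaks of these lines and treatments.

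**Figure D2:**
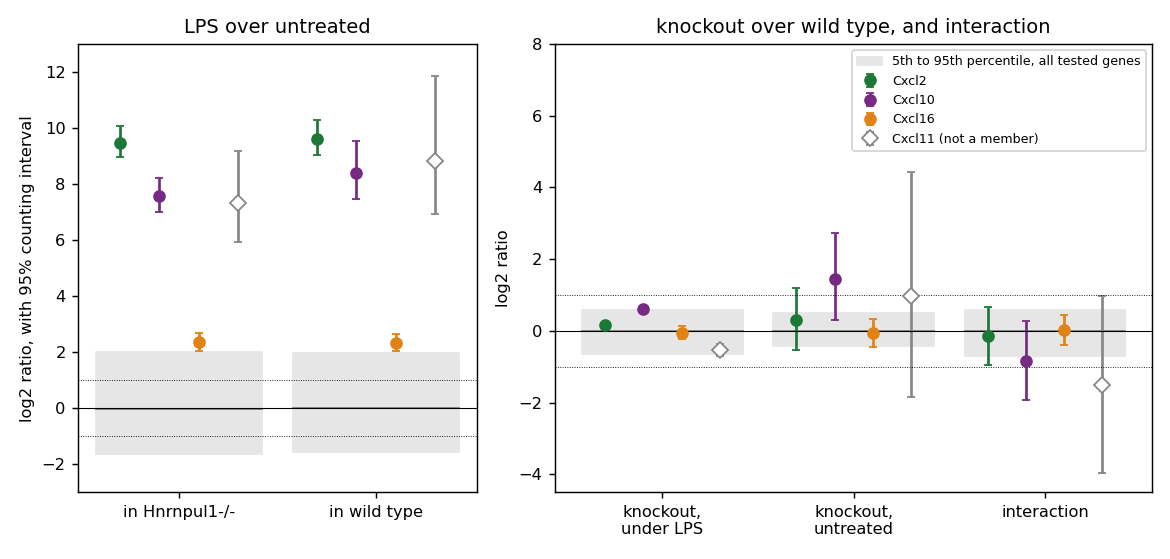
Log2 ratios of Cxcl2, Cxcl10, Cxcl16 and the related gene Cxcl11 with 95% counting intervals, LPS over untreated on the left, and knockout over wild type and the interaction on the right; grey bands span the 5th to 95th percentile of all tested genes and dotted lines mark 2-fold. LPS ratios of the members lie above the band in both genotypes, and among genotype ratios both of Cxcl10 and the untreated one of Cxcl11 lie above it. The interactions of Cxcl10 and Cxcl11 lie below the band.

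Whether LPS acted to a different degree in the 2 genotypes was read from the interaction, the log2 LPS ratio in Hnrnpul1-/- minus that in wild type. It was -0.14 for Cxcl2 (-0.95 to 0.66), -0.82 for Cxcl10 (-1.93 to 0.28) and 0.02 for Cxcl16 (-0.40 to 0.44). None of the 3 was called, against 3.02% of all tested genes, 1.19% higher and 1.84% lower. For Cxcl10 the interval runs from a response of 0.263 times that of wild type to 1.21 times, so a large difference could not be told from none at this depth.

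The makeup of the family differed more between LPS-treated and untreated libraries than between genotypes. Over 15 CXC chemokine genes in the tables, reads summed to 21621 in LPS-treated Hnrnpul1-/- cells and 17702 in LPS-treated wild-type cells, against 168 and 149 in the untreated libraries. Cxcl2 made up 79.7% and 82.5% of the summed level per kilobase in LPS-treated Hnrnpul1-/- and wild-type cells, against 21.3% and 18.8% untreated. Cxcl16 had the opposite shares, 1.54% and 1.86% with LPS against 57.4% and 66.2% untreated.

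Cxcl10 held 17.4% of the family level per kilobase in LPS-treated Hnrnpul1-/- cells and 13.3% in LPS-treated wild-type cells, against 17.5% and 7.07% untreated. Its share was the larger in knockout in both treatments. Read ratios within a library need no scaling between libraries, and they set Cxcl10 apart from Cxcl2 in the genotype comparison under LPS: the ratio of Cxcl10 to Cxcl2 reads was higher in knockout by 0.45 on the log2 scale (0.37 to 0.53). Untreated, the same difference was 1.13 (-0.24 to 2.49). Per kilobase, Cxcl2 was 4.57 times Cxcl10 in LPS-treated Hnrnpul1-/- cells and 6.23 times in LPS-treated wild-type cells.

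**Figure D3:**
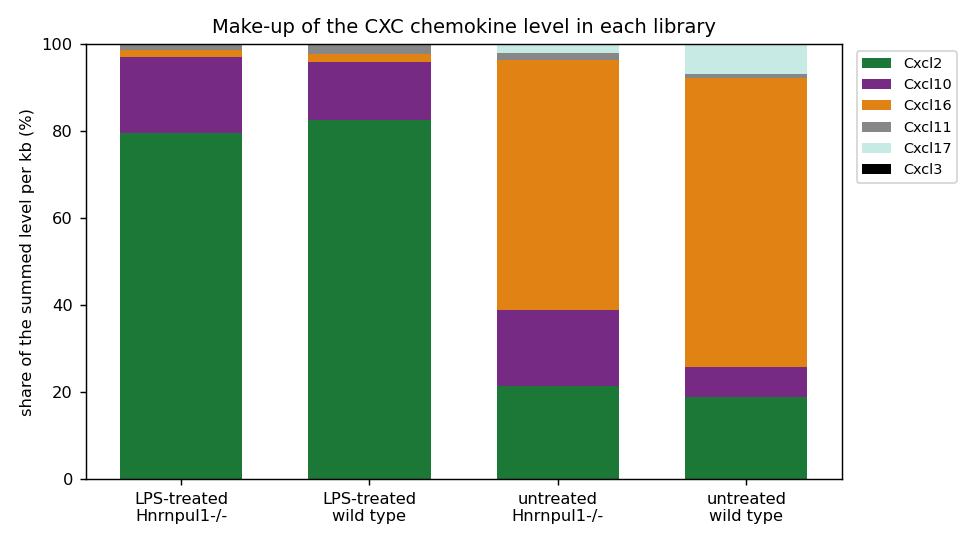
Share of each gene in the summed level per kilobase of 15 CXC chemokine genes, in percent, for each library. Cxcl16 holds the largest share in the untreated libraries and Cxcl2 in those given LPS.

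Of the 9 other CXC chemokine genes, Cxcl11 and Cxcl17 had reads. Cxcl11 encodes a further CXCR3 ligand, lies next to Cxcl10 and is annotated as a polymorphic pseudogene in the mouse reference. It had 530 and 725 reads in LPS-treated Hnrnpul1-/- and wild-type cells, against 4 and 2 untreated. Its LPS ratios were 7.32 (5.95 to 9.20) in Hnrnpul1-/- and 8.81 (6.95 to 11.86) in wild type. Between genotypes under LPS it ran opposite to Cxcl10, with a ratio of -0.52 (-0.68 to -0.36), and the ratio of Cxcl10 to Cxcl11 reads was higher in knockout by 1.14 on the log2 scale (0.97 to 1.32). Cxcl17 had 0, 1, 1 and 3 reads, and Cxcl5, Cxcl12, Cxcl13, Cxcl14, Cxcl15, Pf4 and Ppbp had none.

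Among the neighbours, Cxcl11 next to Cxcl10 and Zmynd15 at Cxcl16 had LPS ratios near those of the member beside them. Within 250 kb of Cxcl1, Cxcl2 and Cxcl3 lay 10 other protein-coding genes, of which 6 had no reads and 1 passed the filter. That gene, Mthfd2l, a mitochondrial folate enzyme, had LPS ratios of 0.01 in Hnrnpul1-/- and 0.05 in wild type. Around Cxcl9 and Cxcl10, 5 of 9 protein-coding neighbours were tested; Cxcl11, annotated as a pseudogene, is not among them. Of these, Naaa, a lysosomal amidase, was lower with LPS (-1.57 in Hnrnpul1-/- and -1.41 in wild type). Around Cxcl16, 2 of 16 tested neighbours were higher with LPS in both genotypes, Zmynd15 and Slc16a11, while 3 were lower in Hnrnpul1-/- and 1 in wild type. With LPS, 11.6% of all tested genes were called higher and 12% lower in Hnrnpul1-/-, and 11.2% and 10.1% in wild type. No tested neighbour was called between genotypes in either treatment, where 3.49% of all tested genes were called under LPS and 2.01% untreated.

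**Figure D4:**
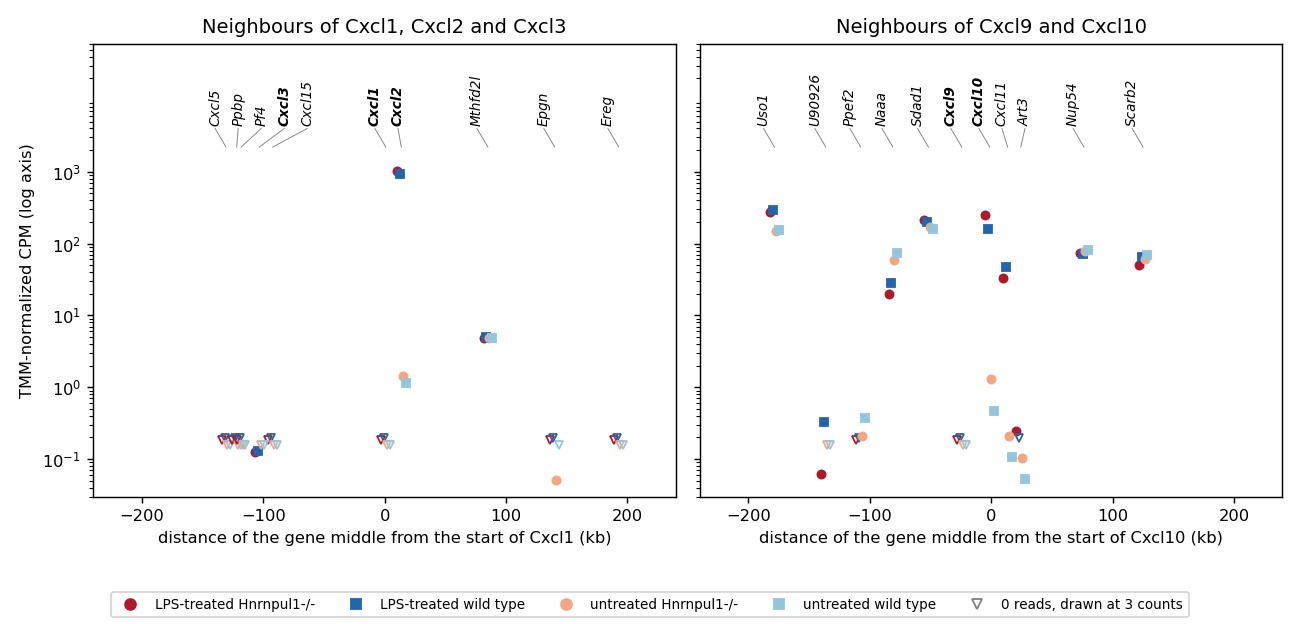
Normalized levels in CPM on a log axis of the genes around Cxcl1, Cxcl2 and Cxcl3 (left) and around Cxcl9 and Cxcl10 (right), by distance in kb of each gene's middle from the start of Cxcl1 or Cxcl10. The 4 libraries of a gene are drawn side by side, and open triangles are libraries with 0 reads, at 3 counts; Cxcl2, Cxcl10 and Cxcl11 stand far apart between LPS-treated and untreated libraries while most neighbours do not.

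Receptors of these ligands were low or absent. Cxcr2, the receptor of the Cxcl1, Cxcl2 and Cxcl3 proteins, and Cxcr1 had 0 reads in all 4 libraries. Cxcr3, the receptor of the Cxcl9 and Cxcl10 proteins, had 30 and 72 reads in LPS-treated Hnrnpul1-/- and wild-type cells, against 121 and 135 untreated. It was lower with LPS by the size rule in Hnrnpul1-/- (-1.75, -2.37 to -1.16) and under that size in wild type (-0.60, -1.03 to -0.18). Cxcr3 had an additive LPS effect of -1.09 (edgeR, adjusted p = 0.0127). Between genotypes under LPS it was called lower in knockout (-1.33, -1.997 to -0.70), and untreated its ratio was -0.19 (-0.55 to 0.18). Cxcr6, the receptor of the Cxcl16 protein, had 10, 9, 8 and 2 reads and was under the filter. Cxcr5, which binds CXCL13, had 84, 111, 45 and 51 reads in the same order, with LPS ratios of 1.17 and 1.43. Cxcr4 had 0, 0, 29 and 10 reads, and Ackr1 and Ackr3 none.

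Proteases known to shed or cleave these chemokines, and Rhbdf2, a cofactor that is not an active protease, were read beside Cxcl16. Of 6 listed genes, 5 were tested, and 3 were higher and 1 lower with LPS in both genotypes. Of all tested genes, 11.6% were called higher and 12% lower in Hnrnpul1-/-, and 11.2% and 10.1% in wild type. The list medians of 2.44 in Hnrnpul1-/- and 2.35 in wild type are the ratios of Rhbdf2 itself, where the medians of all tested genes were -0.02 and -0.004. Adam10, which releases the Cxcl16 protein from the membrane, was lower with LPS, with log2 ratios of -1.30 in Hnrnpul1-/- and -1.05 in wild type. Adam17 had ratios of 0.17 and 0.30, while Rhbdf2, which is needed for ADAM17 to mature, was higher by 2.44 and 2.35, and Mmp9, a gelatinase, by 7.63 and 7.25. Mmp12, a macrophage elastase, was higher in knockout under LPS by 1.02, on 49 reads against 23, where 1.66% of all tested genes were called higher. Mmp9 and Mmp12 had 1 to 4 reads in the untreated libraries and passed the filter through the LPS-treated ones, so these calls are a description. None of the list was called between untreated genotypes, where 2.01% of all tested genes were.

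Along the route from TLR4 to these genes, the signalling genes had lower median LPS ratios than Cxcl2 and Cxcl10. Of 19 TLR4 signalling genes, 7 were higher with LPS in each genotype (medians 0.48 in both), among them Ikbke (3.17 in Hnrnpul1-/- and 3.06 in wild type), a kinase of the interferon branch, and Irak3 (2.99 and 3.27), a brake on the pathway. Of 12 genes listed as NF-kB subunits and feedback inhibitors, 9 were higher in Hnrnpul1-/- and 8 in wild type (medians 2.44 and 1.88), led by Nfkbiz (5.50 and 5.05). Of 14 tested genes of the interferon, IRF and STAT axis, 7 were higher in each genotype (medians 1.28 and 1.25), with Irf7 at 6.99 and 7.84. Ifng had no read, and Ifnb1 had 9, 12, 0 and 0 reads. Of all tested genes, 11.6% were called higher with LPS in Hnrnpul1-/- and 11.2% in wild type, with medians of -0.02 and -0.004. Between genotypes none of these 3 lists had a member called by the 2-fold rule in either treatment. Of all tested genes, 3.49% were called so under LPS and 2.01% untreated. In the additive edgeR fit Nfkbiz, an atypical member of the NF-kB inhibitor family, had a knockout effect of 0.55 (adjusted p = 0.0489). It was the only such call in these lists, where 1.92% of all tested genes had one. The NF-kB list had 11 of 12 ratios above 0 under LPS (median 0.35) and 6 of 12 untreated (median 0.001). The medians of the other lists under LPS were -0.01 for TLR4 signalling and 0.05 for the interferon axis, where that of all tested genes was 0.001.

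Genes that act on AU-rich mRNAs ran in both directions. Of 16 regulators of AU-rich mRNA decay, 4 were higher with LPS in each genotype, and 1 was lower in Hnrnpul1-/- and 2 in wild type. These are 5 and 6 called genes of 16, where 23.6% and 21.4% of all tested genes were called. Zfp36, which encodes tristetraprolin, a protein that binds such elements and shortens mRNA life, was higher by 3.36 in Hnrnpul1-/- and 3.15 in wild type. Zc3h12a, an endonuclease that degrades inflammatory mRNAs, was higher by 3.74 and 3.31. Zfp36l2 was lower with LPS, at 43.6 against 142.9 CPM untreated in Hnrnpul1-/- and 44.8 against 147.5 CPM in wild type. Zfp36l1 was called lower in wild type, at 27.9 against 62.0 CPM, and was under the 2-fold size in Hnrnpul1-/-, at 32.4 against 55.7 CPM. The medians of the list were 0.02 and 0.04, and with scaling by total counts they were -0.29 and -0.26, where the median of all genes was -0.33 and -0.30. No member of the list was called between genotypes, where 3.49% of all tested genes were called under LPS and 2.01% untreated.

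Cxcl10 and Cxcl2 were also set beside other genes of the LPS response. Of 13 interferon-stimulated genes all were higher with LPS in both genotypes by the 2-fold rule (medians 7.54 in Hnrnpul1-/- and 8.30 in wild type). Of 14 inflammatory genes, 13 were tested and all were higher with LPS in both genotypes. Several of these passed the filter through the LPS-treated libraries, such as Il1b and Il6 with 0 untreated reads and Csf3 with 1 in each untreated library, so these counts are a description. Under LPS no interferon-stimulated gene was called between genotypes by the 2-fold rule (median 0.13), where 3.49% of all tested genes were. Untreated, 2 were higher in knockout (median 0.72), Ifit3 (2.97, on 16 reads against 2) and Rsad2 (1.29, on 25 reads against 10), where 1.15% of all tested genes were higher. The interactions of these 13 genes had a median of -0.76, with 2 above 0, and that of Cxcl10 was -0.82. Of the 13, 1 was called lower, Ifit3 (-3.14), where 1.84% of all tested genes were called lower.

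By the same rule 4 inflammatory genes were higher in knockout under LPS (median 0.48), Csf2 (2.51), Il6 (2.18), Il1b (1.37) and Il1a (1.09), where 1.66% of all tested genes were higher. Untreated, Ccl2 was lower (-1.16), where 0.859% of all tested genes were lower. The additive edgeR fit called 6 of the 13 inflammatory genes and 1 interferon-stimulated gene, Isg15 (0.52, adjusted p = 0.0166), higher in knockout. Of all tested genes, 0.988% were higher in knockout in that fit. Cxcl10 had 0.62 under LPS and 1.45 untreated, and Cxcl2 0.18 and 0.32.

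**Figure D5:**
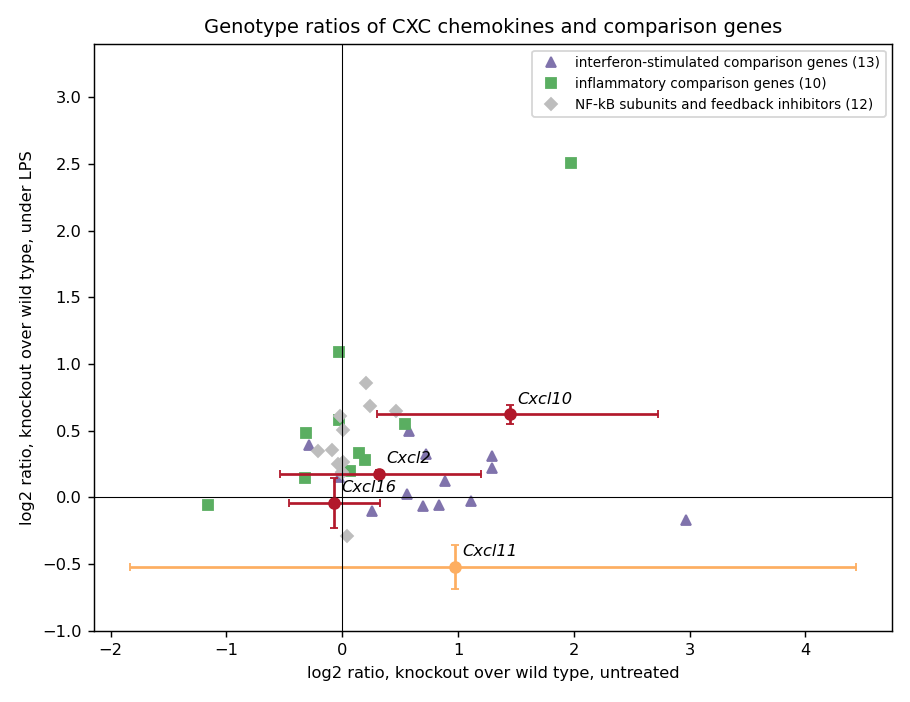
Log2 ratio of knockout to wild type in untreated cells (x axis) and under LPS (y axis) for the 3 tested members and Cxcl11, with 95% counting intervals, and for comparison genes with a ratio in both. Cxcl10 lies above 0 on both axes, Cxcl16 near 0 on both, and Cxcl11 below 0 under LPS.

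The genes whose levels over the 4 libraries were most like each member were found by the Euclidean distance of centred log2 levels among protein-coding genes with a mean of at least 5 CPM, 9245 genes in all. Closest to Cxcl10 were Cd40, a costimulatory receptor, at a distance of 0.286, the nucleotide kinase gene Cmpk2 at 0.532 and the guanylate-binding protein gene Gbp5 at 0.538. Cd40 stood at 204 and 115 CPM in LPS-treated Hnrnpul1-/- and wild-type cells, against 0.826 and 0.316 CPM untreated. Closest to Cxcl2 was Zbp1, a nucleic acid sensor (0.225), and closest to Cxcl16 were Zup1 (0.0846), Acsbg1 (0.0897) and Tapbp (0.123), the last of which encodes the peptide-loading factor tapasin. With 4 libraries these distances mostly follow the LPS ratio.

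The cell type was checked with marker genes. Of 8 macrophage markers 7 stood at 1 CPM or more in every library, and Mertk had at most 1 read. Their summed level was 5269 CPM in LPS-treated Hnrnpul1-/- and 8057 CPM in LPS-treated wild-type cells, against 2882 and 3365 CPM untreated. Its members ran in different directions between genotypes under LPS: Lyz2 stood at 1245 CPM in Hnrnpul1-/- and 3334 CPM in wild type, and Adgre1 at 217 CPM in Hnrnpul1-/- and 128 CPM in wild type. Neutrophil markers summed to at most 0.621 CPM and T cell markers to at most 0.207 CPM, while fibroblast markers reached at most 0.155 CPM and epithelial markers had no read. Dendritic cell markers summed to 1.45 to 3.39 CPM, with Xcr1 at 27, 49, 6 and 2 reads, Siglech at 1, 0, 10 and 19 and Flt3 at 0, and endothelial markers, mostly Pecam1, to 3.05 to 8.58 CPM over the 4 libraries. The B cell factor gene Pax5 had 29, 61, 0 and 0 reads, higher in the libraries given LPS like Xcr1 and the chemokines, and the other B cell markers together stood at 0.263 CPM or less; the part of such cells in the results was not tested.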

How the data were processed

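Polyadenylated RNA of 4 cultures was sequenced, 1 library per group. Builds GRCm38 and mm10 are named in the submitters' processing notes, with featureCounts 1.5.0-p3, HISAT2 2.0.5 and CASAVA 1.8; the strand setting of the counting is not stated there. The authors deposited raw read counts, as whole numbers, for each gene. In the deposited FPKM, every count had been divided by its gene's length and by 1 constant of its library, 0.927 to 1.16 times the total count.

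Counts were scaled with TMM (edgeR 4.0.16, R 4.3.3), taken over the genes past the filter of 1 CPM on average. The factors were 0.899, 0.901, 1.12 and 1.11 for LPS-treated Hnrnpul1-/-, LPS-treated wild type, untreated Hnrnpul1-/- and untreated wild type. Ratios carry exact conditional (Clopper-Pearson) 95% intervals, the interaction and read ratios a delta-method one, and levels a Poisson one. These intervals cover counting error only: the labels' protocols name no molecular identifiers, so reads can be copies of 1 molecule. In a ratio, 0 reads were set to 3, no ratio was formed when 1 count was 0 and the other at most 3, and no ratio with both counts at or under 3 is reported. The additive model used edgeR's quasi-likelihood test on genotype and treatment, with Benjamini-Hochberg adjustment over all 11640 tested genes. Its p-values measure only the spread between these libraries. The rules were tested on simulated data.

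The members, gene lists and motifs were chosen with earlier results of these data known. The genes named were the members, Hnrnpul1, the other CXC chemokine and receptor genes, neighbours within 250 kb, up to 4 called genes of each list per comparison, and the 3 nearest genes by pattern; Adam17, Ifng and Ifnb1 were added after their values were seen, and some genes the rule selects are given by count. Promoters come from RefSeq's table, transcripts from GENCODE. Alternatives were DESeq2 1.42.0 size factors and its Wald test, total counts, other filters and fold sizes, 0.5 added to counts, protein-coding genes alone and the deposited FPKM as log2(value + 1) or log2(value + 0.1).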

Additional observations from a re-analysis of the deposited data

Results flagged for a closer look

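Cxcr3, the receptor of the Cxcl9 and Cxcl10 proteins, had an LPS ratio that differed between genotypes: the interaction was -1.15 on the log2 scale (-1.85 to -0.44), on 30 and 121 reads in LPS-treated and untreated Hnrnpul1-/- cells and 72 and 135 in LPS-treated and untreated wild-type cells. This interval covers counting error only, and with 1 library per group the difference was not tested between conditions. Of all tested genes, 3.02% had an interaction of at least 2-fold with an interval that excluded no change.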

How the results depend on the processing

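Of 75 alternative values for the ratios of Cxcl2, Cxcl10 and Cxcl16, 67 stayed within the counting interval and on the same side of the call, and none turned its sign where the gene was called. The interaction, which was not called, did turn its sign with log2(FPKM + 1), from -0.82 to 0.25 for Cxcl10 and from -0.14 to 0.06 for Cxcl2. With the deposited FPKM as log2(FPKM + 1), which understates changes of low genes by construction, the LPS ratios in Hnrnpul1-/- and in wild type were 8.18 and 8.12 for Cxcl2, 6.11 and 5.86 for Cxcl10, and 1.89 and 1.87 for Cxcl16, and the untreated knockout ratio of Cxcl10 was 0.37, no longer past 2-fold. Total counts gave Cxcl16 an LPS ratio of 2.05 in Hnrnpul1-/-; this scaling moved the median over all genes to -0.33 in Hnrnpul1-/- and -0.30 in wild type, and the share of LPS calls that were higher at 31.4% and 33.9%, against 49.0% and 52.6% with TMM. The knockout effect of Cxcl10 in the additive model was 0.67 with total counts (edgeR, adjusted p = 0.0682) and 0.75 with DESeq2's Wald test (adjusted p = 0.0618); the cause was not tested. The number of genes with a knockout effect was 223, and 142 with total counts, 463 with no filter and 133 with DESeq2.

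Counts of called genes, which serve as background here, moved as follows. LPS calls in Hnrnpul1-/- numbered 1345 higher and 1398 lower; at 1.5-fold they were 2247 and 2448, and lower calls were 2156 with total counts, 766 with FPKM, 793 at a mean of 10 CPM or more and 863 with the whole interval beyond 2-fold. In wild type they numbered 1309 and 1180, at 1.5-fold 2202 and 2230, and the lower calls 1904, 681, 691 and 728 in the same order of settings. Knockout calls under LPS numbered 193 higher and 213 lower, and 103 and 94 with FPKM, 384 and 402 with no filter, 42 and 60 at a mean of 10 CPM or more, 463 and 524 at 1.5-fold, and 65 and 56 with the whole interval. Untreated they numbered 134 and 100, and 61 and 46, 303 and 262, 27 and 16, 316 and 253, and 28 and 20 in the same order. Interaction calls numbered 138 higher and 214 lower, and 237 and 348 with no filter, 21 and 42 at a mean of 10 CPM or more, 307 and 449 at 1.5-fold, and 12 and 27 with the whole interval; protein-coding genes alone gave 86 higher and FPKM gave 124 lower. These settings change the genes tested or the rule itself.

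List medians under DESeq2 size factors and total counts were added after seeing the data; the median of the AU-rich decay regulators turned to -0.29 in Hnrnpul1-/- and -0.26 in wild type with total counts, and to -0.01 in the interaction. No paired analysis was possible because each group held 1 library and the labels give no replicate numbers; leaving out a library was not possible for the same reason. Depth limits the untreated ratios of Cxcl2 and Cxcl10, which rest on 9 to 28 reads, and leaves Cxcl1, Cxcl3 and Cxcl9 without a ratio to untreated cells.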
